A study of Mus musculus with 6 samples.

Results

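The 39 genes described here encode the core machinery of autophagy and its cargo receptors. They were taken by name from the complexes that start, build, load and deliver an autophagosome, and not by their values. All 39 were among the 27263 genes listed for these samples, and all 39 had a mean of at least 1 FPKM (fragments counted in a gene, scaled to its exon length and to the depth of the library), the level needed for testing. They fall into 7 roles: 5 genes of the initiation kinase complex, 7 of the class III lipid kinase complex, 5 of lipid transfer and membrane supply, 8 conjugation enzymes, 5 ATG8 proteins, 5 cargo receptors and 4 fusion factors.

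Autophagy encloses cytoplasm, proteins or organelles in a double membrane and delivers them to the lysosome. Starvation and loss of mTORC1 activity switch on the ULK1 kinase complex, which activates the Beclin 1 and VPS34 lipid kinase, and the lipid it makes recruits the enzymes that attach ATG8 proteins to the growing membrane. Receptors such as p62 bind both ubiquitinated cargo and ATG8 proteins, so they are themselves degraded by the pathway. Much of its control lies in phosphorylation and protein turnover, which transcript levels do not measure. In marrow stromal cells, autophagy is known for its part in self-renewal and in the choice between bone and fat.

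The samples were primary stromal cells from the marrow of C57BL/6 mice, sorted from tibiae and femurs for Sca-1 and CD29 and against CD45 and CD11b, then grown in α-MEM with 10% serum. Cells of the treated group received 50 nM rGCA for 3 days, and cells of the control group received PBS, the buffer, over the same 3 days; from knowledge of the study, rGCA is recombinant grancalcin, which is made by myeloid cells and binds calcium. Each group had 3 libraries, numbered 1 to 3, and the labels name neither age, sex nor any genetic change. Nothing in the labels ties the replicates to separate mice or dishes, and a p-value here speaks of library spread that could be technical alone. The question the comparison addresses is which transcripts differ after 3 days with GCA.

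Depth differed little between libraries. The fragment totals behind the FPKM values ran from 17543509 to 18645932. Fragments recovered from the values sum to more, 18929244 to 19943239, and the reason was not found, so these totals are the scaling used and may not be the full depth. A single autophagy gene held between 146 fragments, for Atg10, and 14675 fragments, for Sqstm1, in any 1 library. The labelled cell type was only partly matched by its markers, and macrophage transcripts were abundant. Ly6a and Itgb1, which encode Sca-1 and CD29, lay at 254.8 to 357.1 and 295.3 to 367.9 FPKM, while Lepr was at 0.26 to 0.59 FPKM. Ptprc and Itgam, which encode the CD45 and CD11b that the sort selected against, lay at 12.0 to 14.5 and 24.9 to 43.1 FPKM. Summed over 15 macrophage markers, FPKM was 18250 to 20370 with PBS and 15690 to 16970 with GCA. Lyz2 was the largest part of that sum, at a mean of 11199 FPKM over the 6 libraries. C1qa, Cd68, Adgre1 and Csf1r had means of 1704, 779, 327 and 156 FPKM, and Col1a1, the highest stromal marker listed, 1241 FPKM. The levels below can therefore not be assigned to stromal cells alone. Of the 15 macrophage markers, 7 were higher with GCA, 1 was lower and 7 did not pass the test. Summed over 12 stromal markers, FPKM was 2910 to 3155 with PBS and 2561 to 2755 with GCA. Of the 11 tested, Vcam1 was higher, Col1a2, Col3a1 and Pdgfrb were lower, and 7 did not pass, Col1a1 and Ly6a among them. Summed osteoblast markers were at 154 to 207.6 FPKM with PBS and 257.7 to 339.4 FPKM with GCA, and most of that was Ibsp (161.8 and 268.3 FPKM on average); of the 5 tested, 2 were higher, 1 was lower and 2 did not pass. Few markers of T and NK cells (1 of 5), B cells (3 of 4) and erythroid cells (2 of 4) were listed, and their sums did not exceed 0.874 FPKM in any library. In these bulk samples fewer cells of a type and less RNA per cell cannot be told apart, and the part of cell composition in the results below was not tested.

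With GCA, 6 of the 39 autophagy genes changed: Optn, Rubcn, Vps39 and Ulk2 rose, and Sqstm1 and Atg13 fell. The largest of the 6 changes was that of Sqstm1, the p62 receptor, at 1.52-fold lower, and the other 5 were between 1.15-fold and 1.32-fold. The remaining 33 did not pass the test, which was limma on log2(FPKM + 1) with p-values adjusted over all 11984 tested genes and a threshold of 0.05. The 6 are 15.4% of the members, against 17.9% of all tested genes (2151 of 11984), so the autophagy genes were called about as often as genes at large. By direction, 11.5% of all tested genes rose and 6.43% fell. Under quantile normalization the members called were split into 3 higher and 3 lower, and all called genes into 1202 higher and 1021 lower, in place of 1380 and 771. The 2 groups did not overlap for 17 of the 39 members, or 43.6%, against 38.5% of all tested genes. The median difference of the 39 was 0.02 on the log2 scale, against 0.01 over all tested genes, and their median size without regard to sign was 0.08 against 0.11. For the median member the 95% confidence interval extended 0.13 to either side of the estimate on the log2 scale. The 39 genes together made up 0.286% to 0.323% of all FPKM in a library.

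**Figure D1:**
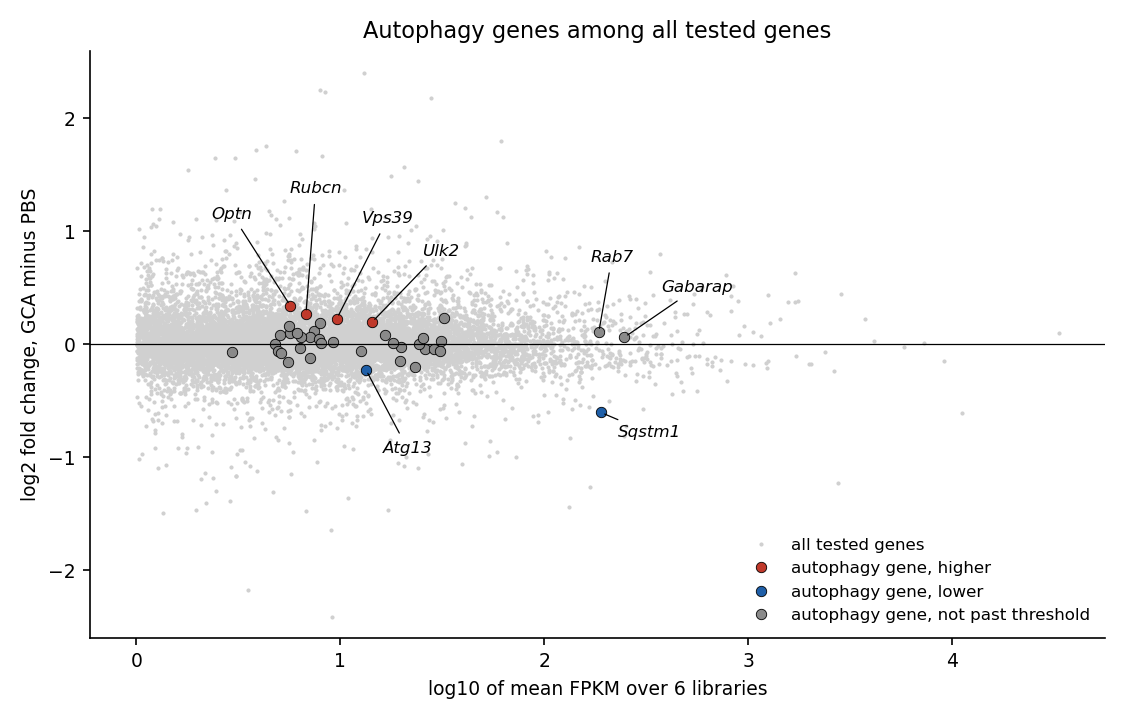
The log2 fold change of FPKM + 1 (GCA minus PBS, y axis) is plotted against the log10 of the mean FPKM over the 6 libraries (x axis) for the 11984 tested genes, with the 39 autophagy genes in colour. The members lie in the middle of the cloud and Sqstm1 stands lowest among them, at -0.60.

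**Figure D2:**
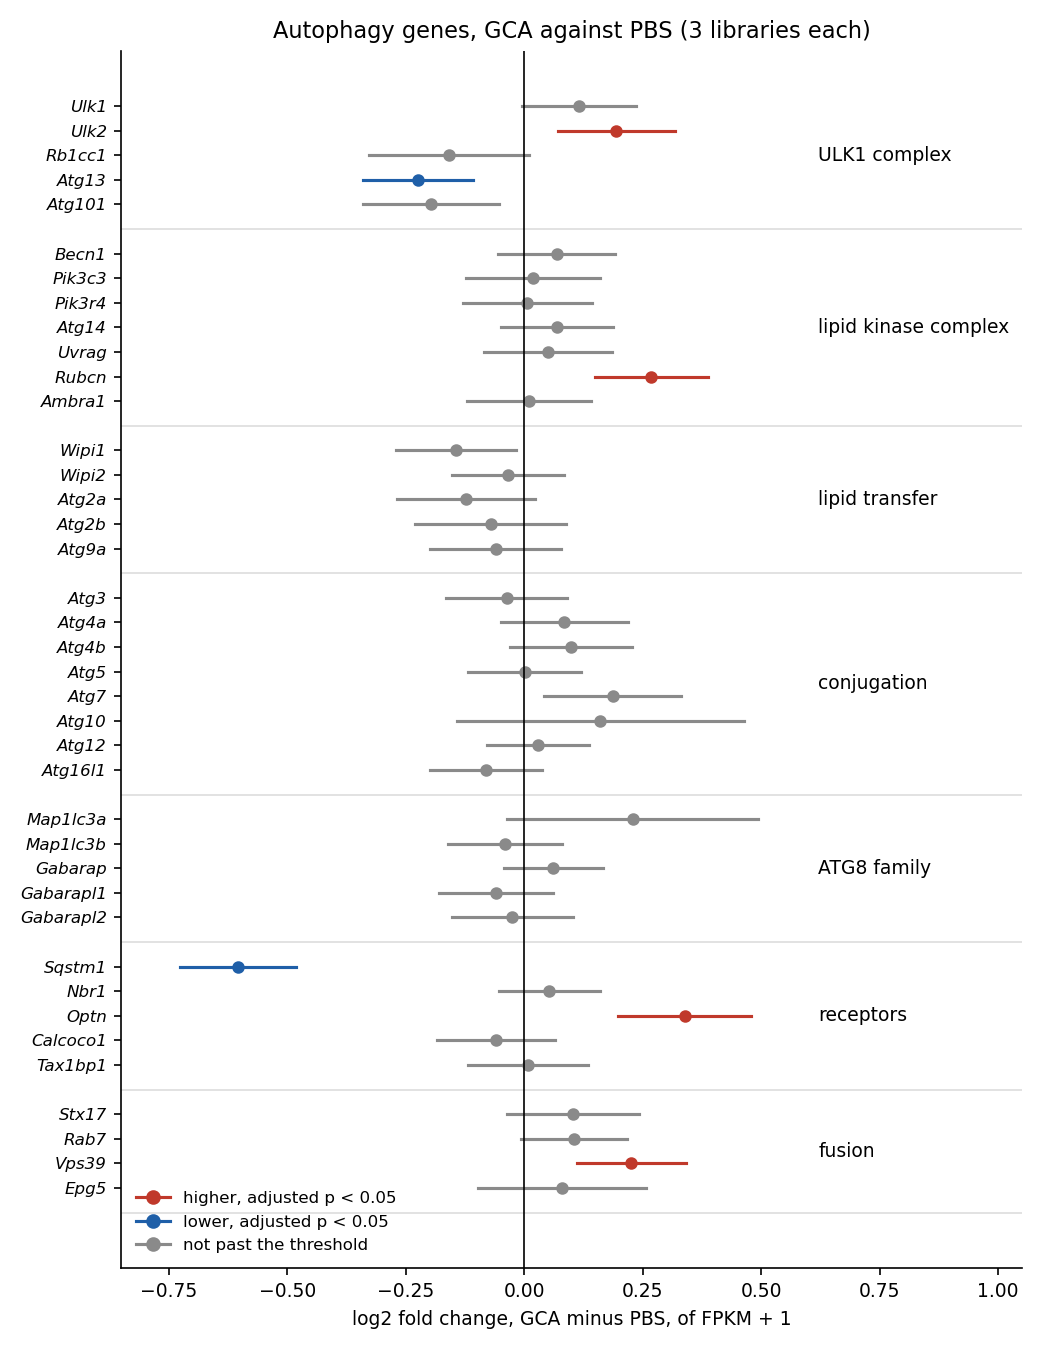
Points give the log2 fold change of FPKM + 1 (GCA minus PBS, x axis) of each of the 39 genes, grouped by role, and lines its 95% confidence interval from limma. The 4 genes past the threshold that were higher are red, the 2 that were lower are blue, and the 33 others are grey.

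In the initiation complex, the catalytic subunit Ulk2 and the regulatory subunit Atg13 moved in opposite directions. ULK1 and ULK2 are the related kinases that start autophagy, and ATG13 is the adaptor that joins them to FIP200 and ATG101. Ulk2 (ENSMUSG00000004798, chromosome 11, 61775649 to 61855073, minus strand) was at 12.6, 13.6 and 13.6 FPKM in PBS replicates 1 to 3. With GCA it was at 14.6, 15.7 and 15.6 FPKM. All 3 GCA libraries were above all 3 PBS libraries, and the rise was 0.19 on the log2 scale (SE 0.054, adjusted p = 0.0414, limma). That call was the least firm of the 6: it was lost in each of the 6 fits that left out 1 library, with adjusted p for Ulk2 from 0.0516 to 0.109. Atg13 (ENSMUSG00000027244, chromosome 2, 91674618 to 91710576, minus strand) was at 14.4, 14.7 and 14.3 FPKM with PBS and 11.7, 12.8 and 12.2 FPKM with GCA. The groups did not overlap, and Atg13 fell by 0.22 on the log2 scale (SE 0.051, adjusted p = 0.0194). Its adjusted p was 0.0501, 0.0679 and 0.0594 without PBS replicate 1, 2 or 3, and 0.0683 and 0.0541 without GCA replicate 1 or 3.

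The other 3 genes of the complex did not pass the test. Atg101, which stabilises ATG13, was the highest of the 5 in FPKM, at 23.9, 25.7 and 24.9 with PBS and 19.7, 22.9 and 21.98 with GCA. Its groups did not overlap, and its difference of -0.20 on the log2 scale had an adjusted p of 0.0643. Ulk1 was at 7.47, 6.83 and 7.07 FPKM with PBS and 7.87, 7.87 and 7.64 FPKM with GCA, a difference of 0.12 on the log2 scale (adjusted p = 0.17). The FPKM ratio of Ulk2 to Ulk1 was 1.86 ± 0.159 (SD, n = 3) with PBS and 1.96 ± 0.101 with GCA, and the ranges overlapped, so the balance of the related kinases shifted by less than its spread. Rb1cc1, which encodes the FIP200 scaffold, averaged 5.87 FPKM with PBS and 5.17 FPKM with GCA, with overlapping groups.

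The start regions of Ulk2 and Atg13 are shown because both hold the antioxidant response element core, TGACNNNGC, a form of the site bound by NRF2, a factor known to act on the receptor gene Sqstm1. Sequences are from RefSeq on GRCm38.p6, 5′ to 3′ along the gene's own strand, with matches in capitals on either strand. Positions count from the annotated start. The Ulk2 stretch is chr11:61855083-61855142 (minus strand, positions -50 to 10) and the Atg13 stretch is chr2:91710783-91710842 (minus strand, positions -250 to -191).
Ulk2: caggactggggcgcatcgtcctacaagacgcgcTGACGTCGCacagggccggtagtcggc
Atg13: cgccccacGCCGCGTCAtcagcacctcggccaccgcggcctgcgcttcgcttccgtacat
Ulk2 matches at position -17 and Atg13 at position -242 on the reverse strand, and the gene with the match rose in the first case and fell in the second. Of the 39 genes, 31 had a RefSeq window of 300 bases around the start, in 36 windows. The TGACNNNGC core was in 5 of the 36, or 13.9%, against 12.4% of all 32851 windows. The other 3 carriers were Map1lc3b, Rab7 and Tax1bp1, none of which passed the test.

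In the lipid kinase complex, 1 of 7 genes changed, or 14.3%, against 17.9% of all tested genes. That gene, Rubcn, encodes Rubicon, which binds the UVRAG form of the VPS34 complex and restrains endosome and autophagosome maturation. Rubcn (ENSMUSG00000035629, chromosome 16, 32821703 to 32877766, minus strand) was at 6.22, 5.76 and 6.20 FPKM with PBS and 7.43, 7.501 and 7.57 FPKM with GCA. The groups were far apart relative to their spread, with means of 6.06 ± 0.261 and 7.501 ± 0.0725 FPKM (SD, n = 3). Rubcn was 1.24-fold higher, or 0.27 on the log2 scale (SE 0.052, adjusted p = 0.011, limma). Its exons overlap 171 bases of Fyttd1 on the opposite strand, and Fyttd1 went from 11.3 to 10.5 FPKM (adjusted p = 0.271).

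A stretch of the Rubcn start region is shown for its E-box core, CACGTG, the centre of the site that TFEB and its relatives bind in genes of autophagy and lysosomes. It is chr16:32868424-32868484 (minus strand, positions -118 to -58 of 1 of its 2 windows), with the match, at position -88, in capitals. That window, 32868317 to 32868616, belongs to a start inside the gene. The other window, 32877680 to 32877979 at the 5′ end of the gene, held no CACGTG.
Rubcn: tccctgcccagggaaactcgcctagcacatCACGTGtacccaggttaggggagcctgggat
The core was in 5 of the 36 windows, or 13.9%, against 7.15% of all windows, and its other carriers were Atg14, Atg3, Atg5 and Atg7. None of those 4 passed the test. The longer CLEAR palindrome, the same core with GT before and AC after it, was in none of the 36 and in 0.326% of all windows. The FOXO site GTAAACA and the form TGATGCAA of the site of ATF4 were also in none of the 36, against 3.65% and 0.895% of all windows.

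The other 6 genes of the complex had positive differences of 0.01 to 0.07 on the log2 scale, none past the test. Of the 11984 tested genes, 6181 had positive differences. Pik3c3, which encodes the catalytic subunit VPS34, had the highest level, at 8.94, 9.63 and 8.73 FPKM with PBS and 8.64, 9.305 and 9.76 FPKM with GCA. Those values interleave. The scaffold Becn1 went from 6.90 to 7.29 FPKM and the targeting subunit Atg14 from 6.27 to 6.62 FPKM, without overlap of the groups but with adjusted p of 0.416 and 0.395. The regulatory subunit Pik3r4, the endosomal subunit Uvrag and the Beclin 1 partner Ambra1 averaged 4.74, 7.74 and 8.02 FPKM with PBS and 4.77, 8.04 and 8.07 FPKM with GCA. The signs of the smallest differences were not fixed, since Pik3c3, Pik3r4 and Ambra1 went below 0 under quantile normalization.

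None of the 5 genes of lipid transfer and membrane supply passed the test, while 17.9% of all tested genes did. All 5 differences were negative, from -0.14 to -0.03 on the log2 scale, as were those of 5803 of the 11984 tested genes. WIPI proteins read the lipid made by VPS34, ATG2 proteins channel lipid into the growing membrane, and ATG9A, a scramblase, supplies the first vesicles. Wipi1 had both the highest level and the smallest p of the 5. It was at 21.3, 21.2 and 19.34 FPKM with PBS and 18.2, 19.34 and 18.1 FPKM with GCA. The lowest PBS library and the highest GCA library almost met. The difference of -0.14 on the log2 scale had an interval of -0.27 to -0.02 before adjustment and an adjusted p of 0.107. Wipi2, the form needed to recruit ATG16L1, was at 6.67, 6.32 and 6.30 FPKM with PBS and 6.33, 6.12 and 6.30 FPKM with GCA. Wipi1 stood above Wipi2 in every library, at a ratio of 3.21 ± 0.143 with PBS and 2.97 ± 0.166 with GCA (SD, n = 3).

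Atg2a was at 7.58, 7.20 and 7.49 FPKM with PBS and 6.99, 7.10 and 6.14 FPKM with GCA, with no overlap and an adjusted p of 0.218. Atg2b was the lowest of all 39 genes, at 3.28, 2.76 and 3.12 FPKM with PBS and 2.78, 2.87 and 2.90 FPKM with GCA. The Atg2a to Atg2b ratio was 2.44 ± 0.149 and 2.37 ± 0.218 (SD, n = 3), so the pair kept its order in all libraries. Atg9a went from 5.07 to 4.82 FPKM, and its counts are uncertain, since the annotated transcript Gm29253 overlaps 1832 of its exon bases on the same strand.

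None of the 8 conjugation enzymes passed the test, against 17.9% of all tested genes. ATG7, ATG3 and ATG10 are the activating and carrier enzymes of the ubiquitin-like conjugation chain, ATG12, ATG5 and ATG16L1 form the complex that directs lipidation, and ATG4 proteases trim and release the ATG8 proteins. Atg7 came closest to the threshold, at 7.66, 7.79 and 6.78 FPKM with PBS and 8.90, 8.33 and 8.45 FPKM with GCA. The groups did not overlap, and the difference of 0.19 on the log2 scale had an interval of 0.04 to 0.33 before adjustment and an adjusted p of 0.076. Atg12 had the highest level, at 30.2, 30.2 and 31.9 FPKM with PBS and 31.9, 31.9 and 30.3 FPKM with GCA, a difference of 0.03 on the log2 scale. Its partner Atg5 averaged 24.2 FPKM in both groups, with an interval of -0.12 to 0.12 on the log2 scale. Atg16l1 averaged 5.28 FPKM with PBS and 4.94 FPKM with GCA, without overlap of the groups (adjusted p = 0.319).

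The protease Atg4a was at 15.0, 17.1 and 16.1 FPKM with PBS and 17.4, 16.5 and 17.3 FPKM with GCA. Atg4b, the protease of widest substrate range, was at 5.24, 5.53 and 5.475 FPKM with PBS and 5.83, 5.61 and 6.17 FPKM with GCA. Atg4a was the higher of the pair in FPKM in all 6 libraries, at a ratio of 2.96 ± 0.118 with PBS and 2.91 ± 0.0937 with GCA (SD, n = 3). That order depends on the exon lengths used for scaling, 2661 bases for Atg4a and 8278 for Atg4b. Before scaling to length, a library held 726 to 859 fragments of Atg4a and 791 to 952 of Atg4b. Atg3 averaged 26.2 and 25.6 FPKM. Atg10, the gene with the fewest fragments, ranged from 4.76 to 7.40 FPKM with GCA, and its interval of -0.14 to 0.46 on the log2 scale was the widest of the 39.

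None of the 5 ATG8 genes passed the test, against 17.9% of all tested genes, and the same gene dominated the family in both groups. ATG8 proteins are small ubiquitin-like proteins that are joined to phosphatidylethanolamine on the autophagosome and bind the receptors, and they fall into the LC3 and GABARAP groups. Gabarap held most of the family's FPKM, from 67.6% to 70.0% in the 6 libraries. It was the highest of all 39 genes over the 6 libraries, at 231.7, 247.5 and 245.4 FPKM with PBS and 250.3, 251.6 and 254.2 FPKM with GCA. The groups did not overlap, yet the difference was 0.06 on the log2 scale, with an interval of -0.04 to 0.17 (adjusted p = 0.385). Summed over the family, FPKM was 352.2 ± 11.4 with PBS and 365.3 ± 8.91 with GCA (SD, n = 3), with overlapping ranges. Smaller shares moved a little: Map1lc3b held 8.31% ± 0.107 of the family's FPKM with PBS and 7.78% ± 0.184 with GCA, and those ranges did not overlap. The shares were not tested.

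Among the other ATG8 genes, Map1lc3a had the largest difference and the widest spread, at 29.0, 25.9 and 34.4 FPKM with PBS and 32.8, 32.9 and 39.3 FPKM with GCA. PBS replicate 3 lay above GCA replicates 1 and 2, and the adjusted p was 0.209 for a difference of 0.23 on the log2 scale. Map1lc3b, the LC3 gene most used as an autophagy marker, was at 28.0, 29.8 and 30.0 FPKM with PBS and 28.3, 27.3 and 29.8 FPKM with GCA. The Map1lc3a to Map1lc3b ratio was 1.02 ± 0.14 with PBS and 1.23 ± 0.0829 with GCA (SD, n = 3), and its ranges lay apart by a narrow margin, with PBS up to 1.15 and GCA from 1.16. The level of that ratio depends on exon lengths of 1181 and 7517 bases, since Map1lc3a held 556 to 866 fragments and Map1lc3b 3594 to 4174. Gabarapl1 was at 32.5, 30.1 and 32.2 FPKM with PBS and 30.0, 29.1 and 31.7 FPKM with GCA. The Gabarap to Gabarapl1 ratio was 7.66 ± 0.549 and 8.33 ± 0.313 (SD, n = 3), with overlapping ranges. Gabarapl2 averaged 20.01 and 19.6 FPKM, and 3 processed copies of it with at least 95% identity were listed at 0.423 FPKM or less.

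Of the 5 cargo receptors, Sqstm1 fell and Optn rose. Sqstm1 encodes p62, which gathers ubiquitinated proteins into condensates and also holds KEAP1 away from NRF2. Sqstm1 (ENSMUSG00000015837, chromosome 11, 50199366 to 50210827, minus strand) was at 239.9, 229.7 and 217.5 FPKM with PBS and 153.1, 153.9 and 144 FPKM with GCA. The lowest PBS library was well above the highest GCA library, and the means were 229 ± 11.2 and 150.3 ± 5.5 FPKM (SD, n = 3). The fall was 0.60 on the log2 scale (SE 0.053, interval -0.73 to -0.48, adjusted p = 0.000503, limma). Over the 15 alternative settings the adjusted p of Sqstm1 ranged from 1.28e-06 to 0.00548. Its exons overlap 580 bases of Mrnip on the opposite strand. Mrnip was at 0.407 FPKM with PBS and 0.681 FPKM with GCA, below the level needed for testing. The part of this overlap in the Sqstm1 values was not tested.

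OPTN encodes optineurin, a receptor for damaged mitochondria and bacteria that TBK1 activates. Optn (ENSMUSG00000026672, chromosome 2, 5020642 to 5064051, minus strand) was at 4.78, 5.15 and 4.797 FPKM with PBS and 6.88, 6.11 and 6.44 FPKM with GCA. All GCA libraries were above all PBS libraries, and the gene was 1.32-fold higher, or 0.34 on the log2 scale (SE 0.061, adjusted p = 0.00831). Its adjusted p stayed between 0.00284 and 0.036 over the 15 alternative settings.

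The other 3 receptors did not pass the test. Nbr1, a receptor related to p62 that forms mixed assemblies with it, averaged 25.0 ± 0.315 FPKM with PBS and 25.98 ± 1.02 FPKM with GCA (SD, n = 3). Tax1bp1, which joins p62 condensates to the autophagy machinery, averaged 18.04 and 18.1 FPKM. Calcoco1, a receptor for the endoplasmic reticulum and the Golgi, averaged 12.9 and 12.3 FPKM. The makeup of the receptor pool therefore shifted: Sqstm1 held 79.0% ± 0.685 of the summed receptor FPKM with PBS and 70.5% ± 1.52 with GCA. The pool as a whole was 289.9 ± 11.9 FPKM with PBS and 213.2 ± 3.25 FPKM with GCA. The ratio of Sqstm1 to Nbr1 went from 9.16 ± 0.39 to 5.80 ± 0.425, and that of Sqstm1 to Optn from 46.7 ± 3.04 to 23.3 ± 1.68 (SD, n = 3), and neither range overlapped between groups. These shares and ratios were not tested and follow from the gene levels above.

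**Figure D3:**
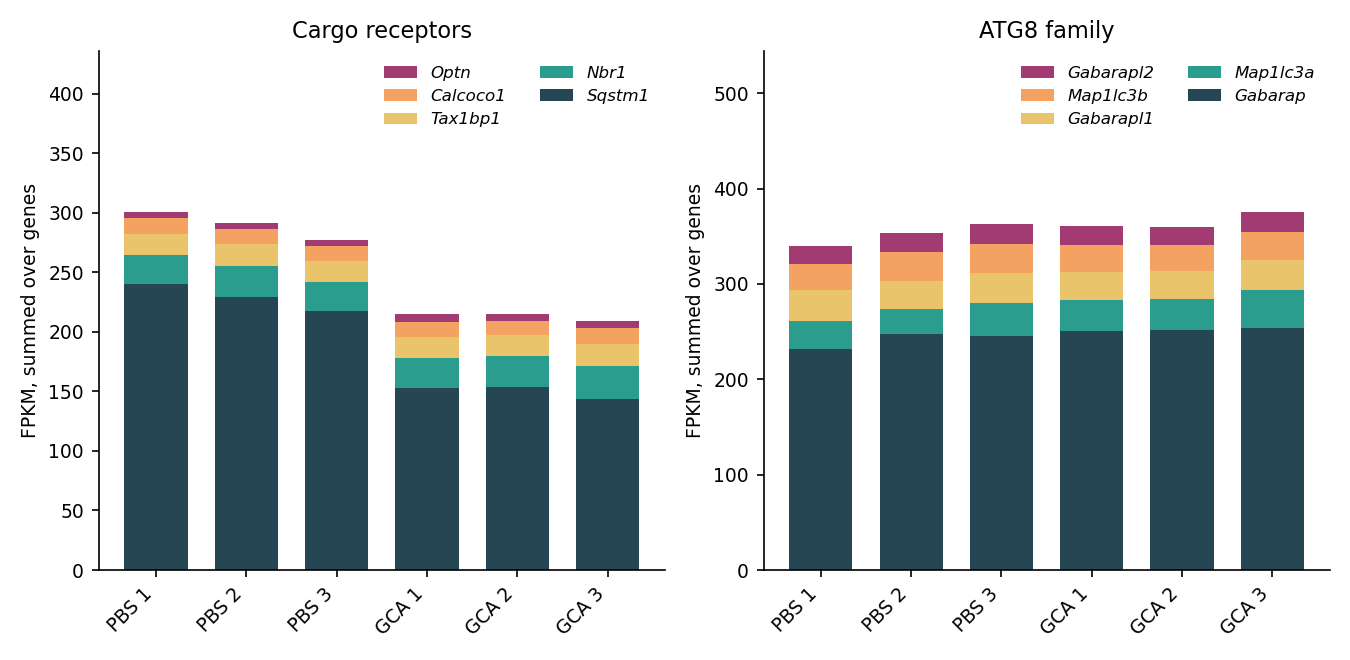
Stacked bars give FPKM in each of the 6 libraries for the 5 cargo receptors (left) and the 5 ATG8 genes (right). The receptor stack is shorter in the 3 GCA libraries, 209.5 to 215.2 against 277.2 to 300.7 FPKM, by the Sqstm1 segment, while the ATG8 stack overlaps between groups.

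The start regions of Sqstm1 and Optn are shown because these genes carried the receptor result. The Sqstm1 stretch is chr11:50210811-50210950 (minus strand, positions -130 to 10) and the Optn stretch is chr2:5064118-5064247 (minus strand, positions -130 to -1). Capitals mark GGGCGG, the core of the site of SP1, on either strand, and TATAAA, the TATA box core.
Sqstm1: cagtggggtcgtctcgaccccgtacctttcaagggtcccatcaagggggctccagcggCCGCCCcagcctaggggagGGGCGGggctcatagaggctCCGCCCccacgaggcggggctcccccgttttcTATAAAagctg
Optn: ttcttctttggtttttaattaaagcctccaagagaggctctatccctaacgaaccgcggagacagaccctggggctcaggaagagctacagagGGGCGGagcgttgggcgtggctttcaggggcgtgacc
Sqstm1 holds 3 GGGCGG matches, at positions -72, -53 and -33, and Optn holds 1 in this stretch, at position -37, and another at position 33. TATAAA begins at position -1 of the annotated start of Sqstm1. Neither Sqstm1 nor Optn held TGACNNNGC or CACGTG in its window of 300 bases. The window covers 250 bases before the start and 50 after it, and sites farther away were not searched. GGGCGG and TATAAA were added to the search after the sequences were seen. GGGCGG was in 24 of the 36 windows of the members, or 66.7%, against 35.7% of all windows, and TATAAA in 3 of 36, or 8.33%, against 13.6%.

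Of the 4 fusion factors, 1 changed, or 25%, against 17.9% of all tested genes. VPS39 is the subunit of the HOPS tether that binds RAB7, and HOPS brings the autophagosome and the lysosome together. Vps39 (ENSMUSG00000027291, chromosome 2, 120316461 to 120353137, minus strand) was at 8.43, 8.76 and 9.13 FPKM with PBS and 10.6, 10.3 and 10.4 FPKM with GCA. The groups did not overlap, and the gene was 1.19-fold higher, or 0.23 on the log2 scale (SE 0.05, adjusted p = 0.0184, limma). Its adjusted p was 0.0538 and 0.0594 without PBS replicate 1 or 2, and 0.0647 without GCA replicate 1. Rab7, the GTPase of late endosomes, was the highest of the 4, at 172.6, 177.2 and 185 FPKM with PBS and 198.7, 185.6 and 190.9 FPKM with GCA. The groups nearly touched, and the difference of 0.10 on the log2 scale had an adjusted p of 0.179. Rab7 is uncertain because Rab7-ps1, 98.4% identical over 622 bases, was listed at 14.0 FPKM with PBS and 16.0 FPKM with GCA. Stx17, the SNARE of the autophagosome, averaged 5.90 and 6.41 FPKM, and Epg5, a tether, 4.90 and 5.22 FPKM, both with overlapping groups.

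**Figure D4:**
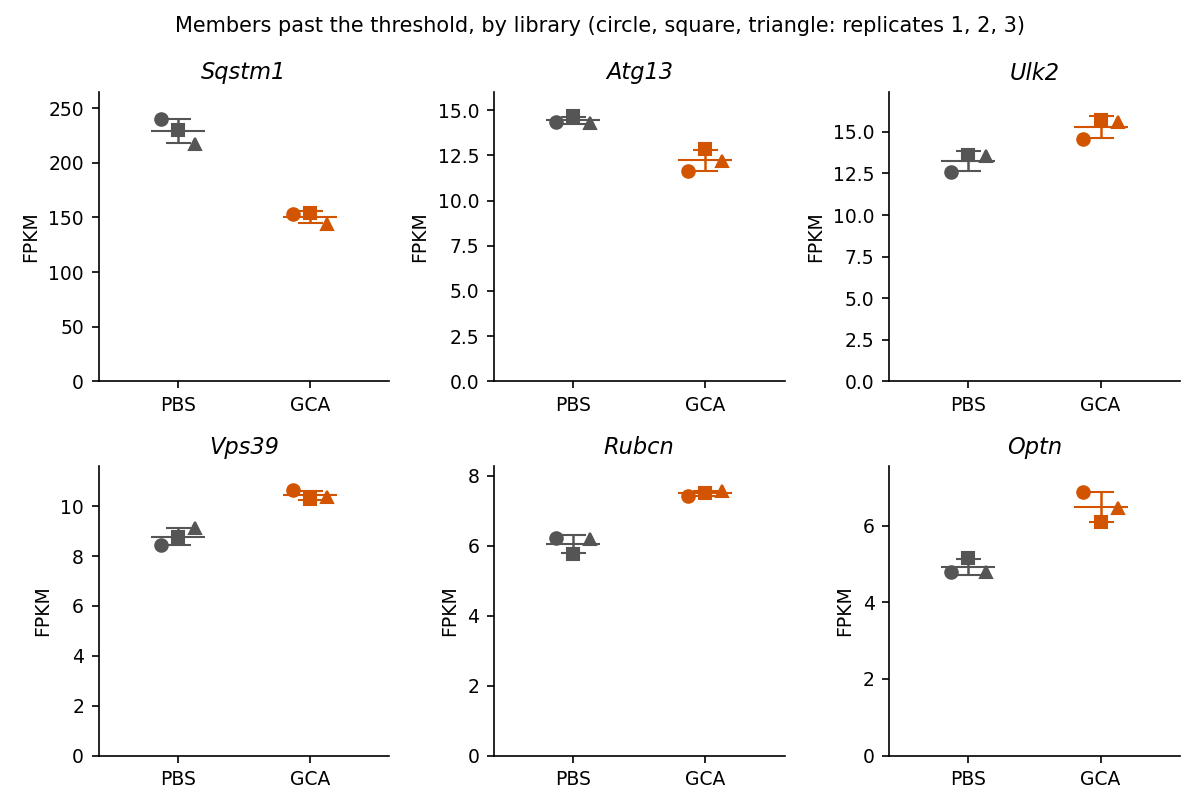
FPKM (y axes, from 0) of the 6 autophagy genes past the threshold is shown for each PBS and GCA library, with the mean and SD (n = 3). Circle, square and triangle are replicates 1, 2 and 3, and in all 6 panels the groups do not overlap.

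The other genes of the pathway were counted from a list chosen by function. Of 64 found, 59 were tested, and of those 8 were higher and 4 were lower with GCA, or 20.3% against 17.9% of all tested genes, and under quantile normalization the split was 4 higher and 6 lower. The lysosome and fusion genes on the list that rose were Vps33a, a partner of VPS39 in HOPS (22.3 ± 0.165 to 28.0 ± 1.51 FPKM, adjusted p = 0.00555), the lysosomal membrane protein Lamp1 (588.8 to 705.6 FPKM) and the tether Tecpr1 (4.99 to 6.96 FPKM). Rubcnl, which encodes Pacer, a counterpart of Rubicon that favours fusion, rose from 4.86 ± 0.23 to 6.29 ± 0.572 FPKM (adjusted p = 0.0196), so both relatives were higher. The kinase gene Ulk3 rose from 3.19 to 4.15 FPKM. Among receptors of organelles and ferritin, the ferritin receptor Ncoa4 rose from 24.1 ± 0.752 to 34.2 ± 2.9 FPKM (adjusted p = 0.00263) and the endoplasmic reticulum receptor Tex264 from 32.5 to 37.3 FPKM. The groups did not overlap for any of the genes named here as higher. Over the whole list they did not overlap for 25 of the 59 tested genes, or 42.4%, against 38.5% of all tested genes. The other HOPS genes on the list, Vps11, Vps16, Vps18 and Vps41, did not pass the test.

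Among regulators, Ddit4, which encodes the mTORC1 inhibitor REDD1, rose from 62.4 ± 1.23 to 99.7 ± 14.1 FPKM (adjusted p = 0.00385). Eif4ebp1, the translation repressor that mTORC1 phosphorylates, fell from 45.3 to 36.8 FPKM, and Deptor, another inhibitor of mTOR, fell from 9.18 to 7.54 FPKM. Mitf fell from 7.29 ± 0.259 to 5.53 ± 0.146 FPKM (adjusted p = 0.0043), while its relatives Tfeb and Tfe3 had differences of 0.02 and 0.04 on the log2 scale and did not pass the test. Mtor and Foxo3 did not pass either, with differences of 0.06 and 0.07. Atf4, the factor of the integrated stress response, fell from 145.6 ± 6.54 to 110.7 ± 9.97 FPKM (adjusted p = 0.00752). Of these 12 genes Vps33a, Ncoa4, Mitf, Eif4ebp1, Ddit4 and Atf4 were called in all 15 alternative settings. The other 6 were less firm when 1 library was left out. The adjusted p reached 0.125 for Ulk3 (without PBS replicate 3), 0.136 for Tecpr1, 0.116 for Lamp1 (both without PBS replicate 2) and 0.0661 for Rubcnl (without PBS replicate 1). It reached 0.131 for Tex264 and 0.0832 for Deptor, both without GCA replicate 1. Of the 6 libraries, leaving out GCA replicate 2 kept the calls of Tecpr1, Lamp1, Rubcnl, Tex264 and Deptor, and leaving out PBS replicate 1 kept that of Ulk3, and each other removal lost them.

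Stress genes were set beside Sqstm1 because NRF2 and ATF4 are both known to act on it. Of 5 NRF2 targets picked for this purpose, 4 fell with GCA, while 6.43% of all tested genes fell. These targets and the ATF4 targets below were picked with earlier results of these data known, so their counts are a description and not a test. Gclm went from 32.9 ± 1.48 to 14.9 ± 1.62 FPKM, Txnrd1 from 33.5 ± 2.25 to 20.7 ± 0.588, Srxn1 from 38.1 ± 2.35 to 25.5 ± 0.453 and Hmox1 from 872.4 ± 5.55 to 698.5 ± 66.6 (SD, n = 3). Nqo1 was at 4.52 FPKM with PBS and 4.04 FPKM with GCA and did not pass the test. Nfe2l2, which encodes NRF2, had a difference of 0.15 on the log2 scale (adjusted p = 0.149). All 5 ATF4 targets picked fell, from -1.65 on the log2 scale for Trib3 to -0.19 for Ddit3, with Chac1, Asns and Sesn2 between them. Both lists are short and leave out other targets of NRF2 and ATF4, so they do not speak for all of them. The calls of Ddit3 and Sesn2 were lost without any 1 of the libraries other than GCA replicate 2, with adjusted p up to 0.094 and 0.129, both without GCA replicate 1. That of Hmox1 was lost without PBS replicate 2 or 3 or GCA replicate 1 or 3, with adjusted p up to 0.06. These targets have other regulators too, and a link between any of them and Sqstm1 was not tested.

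**Figure D5:**
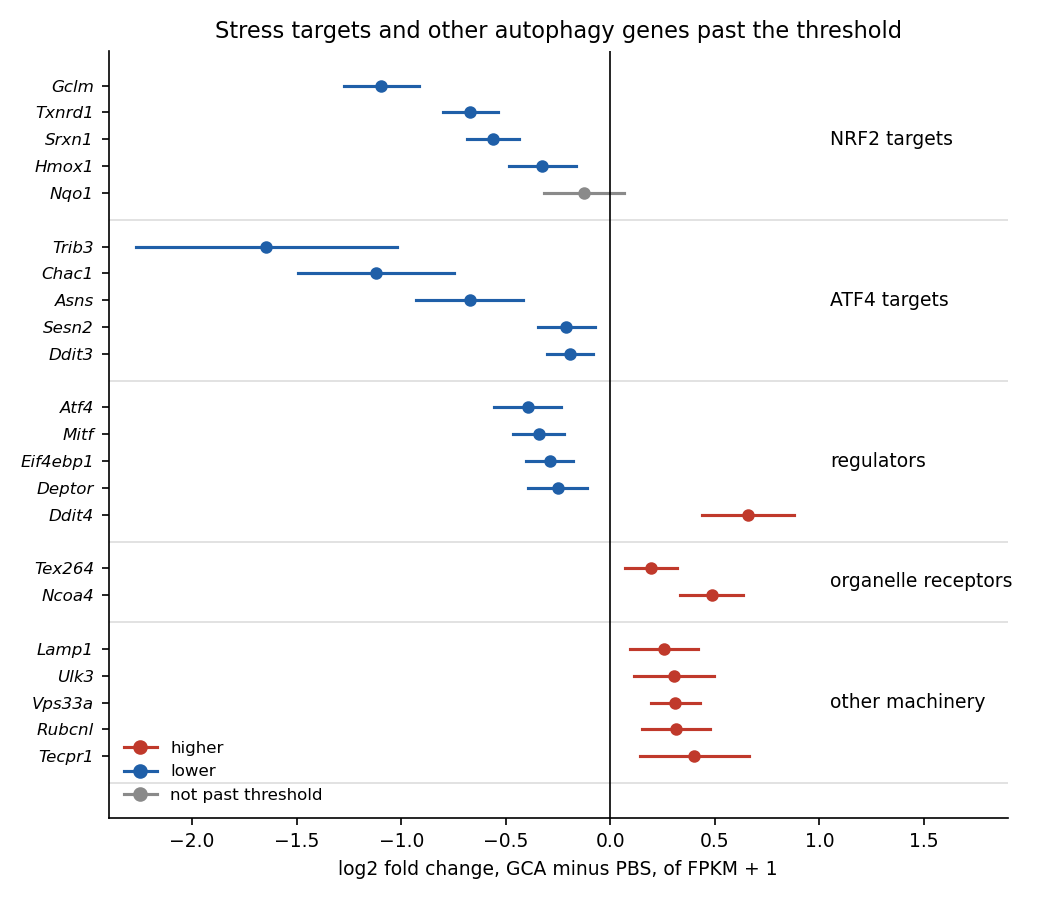
Points give the log2 fold change of FPKM + 1 (GCA minus PBS, x axis) with its 95% confidence interval for the 10 stress targets and for the 12 other autophagy genes past the threshold. The stress targets lie below 0, with Nqo1 alone reaching across it, and the other autophagy genes lie on both sides.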

How the data were processed

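Expression in 3 PBS and 3 GCA libraries was analysed from the values deposited by the authors, 1 number per Ensembl gene and library. The unit is not named in the labels or headers. The values were identified as FPKM from the deposited numbers themselves: multiplied by exon-union lengths of GENCODE M21, about 91.0% were whole fragments within 0.02 fragment. The submitters' processing notes list Bowtie 0.12.2 with mm8 and mm9 as builds. The counting tool, its strand setting, the annotation and any filters were not given in the sources used here. Coordinates were looked up by Ensembl identifier in GENCODE M21, which is on GRCm38 (27204 of 27263 matched), and the build of the alignment was not settled.

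Groups were compared on log2(FPKM + 1) by limma-trend, robust (limma 3.58.1, R 4.3.3). The added 1 makes log2 changes of low genes smaller than they are in FPKM. Genes whose mean reached 1 FPKM entered. The model held treatment alone, p-values were two-sided, and Benjamini-Hochberg adjustment ran over all genes tested. The step was tested on simulated data. Figures used matplotlib 3.10.9 in Python 3.11.15. Full values were given for genes past the threshold, for the highest gene and that of smallest p in each role, and for paralogue pairs. The members, the other lists and that rule were chosen with earlier results of these data known. No 2 libraries of a group agreed within sampling noise. The mean chi-square per gene was 6.64 to 8 among PBS libraries, 9.14 to 26.54 among GCA libraries and 31.38 to 39.93 between groups. GCA replicate 2 stood furthest from its group, at 16.7 against GCA replicate 1 and 26.54 against GCA replicate 3. The alternatives were a replicate block, other scalings, filters, pseudocounts and moderation, leaving out each library and, chosen after seeing the data, limma-voom on recovered fragments. Protein sequences were not used here.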

Additional observations from a re-analysis of the deposited data

How the results depend on the processing

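Of the 6 autophagy genes past the threshold, Sqstm1, Optn and Rubcn were past it in all 15 alternative settings, and none of the 6 changed sign. Without a filter on low values, 1075 genes, 3 autophagy genes and 6 other genes of the pathway were called, in place of 2151, 6 and 12, and 27263 genes were then tested. Leaving out 1 library at a time gave 1225 to 2078 genes, 3 to 6 autophagy genes and 6 to 13 other genes of the pathway, with fewer samples in the fit. The lowest counts of autophagy genes, 3, came without PBS replicate 1, PBS replicate 2 or GCA replicate 1. Limma-voom on recovered fragments, chosen after seeing the data, called 2665, 7 and 12. Ulk2 was past the threshold in 5 of the 15 settings, Atg13 in 9 and Vps39 in 11. Without the filter their adjusted p was 0.111 for Ulk2, 0.0601 for Atg13 and 0.0548 for Vps39, and for Ulk2 it was 0.0609 under quantile normalization, 0.0564 under median centring and 0.0583 without trend and robust moderation. Atg7 was called by voom (adjusted p = 0.0324). Atg101 was called under quantile normalization (0.0452), with a filter at 5 FPKM (0.0447) and without GCA replicate 2 (0.0374). Same-numbered libraries deviated together only weakly, with correlations of 0.082, 0.029 and 0.068 over genes, against -0.082 to 0.023 for other pairs. Each library thus correlated best with its own number, the direction that pairing would give. No label ties the numbers, so pairing was not settled, and the main fit did not use it. With the replicate block, 2094 genes, 8 autophagy genes and 11 other genes of the pathway were called, Atg101 (adjusted p = 0.0401) and Map1lc3a (0.0295) among the 8, while Tex264 (0.0597), Ddit3 (0.0515) and Sesn2 (0.0625) were not called. Precision was limited for the genes with few fragments, such as Atg10.

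Signs reversed for 8 uncalled members, whose main and reversed values were all within 0.037 of 0 on the log2 scale. Under quantile normalization the difference was -0.001 for Pik3c3, -0.022 for Pik3r4, -0.004 for Ambra1, -0.037 for Atg5, -0.013 for Atg12 and -0.010 for Tax1bp1. Under median centring it was -0.007 for Pik3r4, -0.003 for Ambra1, -0.012 for Atg5 and -0.005 for Tax1bp1. With 1 library left out, values ran from -0.018 to 0.061 for Pik3c3, -0.019 to 0.039 for Pik3r4, -0.012 to 0.052 for Ambra1, -0.064 to 0.013 for Atg3, -0.030 to 0.035 for Atg5, -0.064 to 0.003 for Gabarapl2 and -0.028 to 0.045 for Tax1bp1. The cause was not tested.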
